A study of Mus musculus with 12 samples.

Results

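The genes described here are 7 genes of triglyceride synthesis, Acsl1, Gpd1, Agpat2, Lpin1, Dgat1, Dgat2 and Pck1, followed over 12 Affymetrix mouse arrays. The members were the probe sets that the deposited annotation names with one of these 7 symbols, which gave 19 of the 45101 probe sets on the array. Of the 20670 genes on the array, 12402 were bright enough to be tested, and 6 of the 7 members were among them. Pck1 was under the intensity limit and is described by its signals only.

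A cell stores fat by joining fatty acids to a glycerol backbone. Long-chain acyl-CoA synthetases activate the fatty acid, glycerol-3-phosphate dehydrogenase supplies the backbone, and acyltransferases and a phosphatidate phosphatase then build diacylglycerol, to which a diacylglycerol acyltransferase adds the last chain. In fat cells these enzymes accumulate during differentiation, when the fat droplet forms.

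The arrays measured total RNA of 2 established mouse cell lines, 3T3-L1 preadipocytes and 10T1/2 mesenchymal stem cells (labelled 10Thalf), both of which can become fat cells. Cells received control siRNA (si-Ctr) or siRNA against Setdb1, Mbd1 or Mcaf1, given on day -5 and again on day 0. Setdb1 is a histone H3 lysine 9 methyltransferase, Mcaf1 (current symbol Atf7ip) is its partner protein, and Mbd1 binds methylated DNA. RNA was taken at 0 hr, before the differentiation medium, or from cells kept in that medium, with the synthetic glucocorticoid dexamethasone at 0.25 µM, for 36 hr in the case of 3T3-L1 and 48 hr in the case of 10T1/2. For 3T3-L1, si-Ctr and si-Setdb1 were each on 2 arrays at 0 hr, 1 in each of experiments A and B (called pair A and pair B), and on 1 array each at 36 hr, from experiment A. For 10T1/2, each siRNA was on 1 array at 0 hr and 1 array at 48 hr. Mbd1 and Mcaf1 siRNA were each on 1 array of 3T3-L1 in experiment B, titled 0 hr although their descriptions give 36 hr, and the title was followed. On these 2 arrays the summed signal of 4 dexamethasone-induced genes was 645 to 693, against 348 to 665 on si-Ctr arrays at 0 hr and 2197 to 6142 on si-Ctr arrays in dexamethasone medium. So 8 of the 10 groups held 1 array. The labels do not say whether the A and B arrays came from separate cultures, so the spread between these arrays may be technical. In comparisons over pairs, p-values measure the spread of the pair differences. Where the pairs differ in line, time or siRNA, that spread also holds differences between these conditions.

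The targeted genes were checked first. The brightest Setdb1 probe set read 121 to 180 on the si-Ctr arrays and 143 to 209 on the 5 arrays labelled si-Setdb1, with the array labelled si-Setdb1 lower in 2 of 5 pairs, so those arrays are named by their label. A dim Setdb1 probe set was lower in 5 of 5 pairs (1.6 to 24.4 against 0.4 to 9.9), and another dim one was lower in 0 of 5 (6 to 11.7 against 7.3 to 22.1). Directions below therefore rest on the labels. The brightest Mbd1 probe set read 306 with si-Ctr and 144 with si-Mbd1 in experiment B. The brightest Atf7ip probe set read 160 with si-Ctr and 155 on the array labelled si-Mcaf1. That Atf7ip probe set read 106 to 187 with si-Ctr and 359 to 503 on the arrays labelled si-Setdb1, a rise of 1.66 ± 0.11 on the log2 scale over the 5 pairs (limma, adjusted p = 0.0192). The brightest Setdb1 probe set read 271 on the array labelled si-Mcaf1 and 145 on its si-Ctr array. The 4 arrays of experiment B had a median signal of 14.9 to 18, against 11.2 to 12.1 on the other 8, and a ratio of 3' to 5' Gapdh probe sets of 0.691 to 0.747, against 0.859 to 0.933. The part of these differences in the results was not tested, and values without the pair of experiment B are given below. The summed signal of a list of fat cell markers, of which 7 of 8 were on the array, was 40.8 to 144 on si-Ctr arrays at 0 hr and 1102 to 2200 after dexamethasone. On the arrays labelled si-Setdb1 the sum was 571 to 2457 at 0 hr and 10730 to 15151 after dexamethasone. In that list Lep and Lipe stayed at 0.3 to 6.5 and 0.2 to 10.2 on every array. A list of liver cell markers, of which 4 of 5 were on the array and none was bright enough to be tested, summed to 5.4 to 19.8 on every array. The bone and cartilage list, of which 4 of 5 were on the array, moved with the label in 10T1/2 through the cartilage collagen Col2a1, which read 2797 with si-Ctr and 852 on the array labelled si-Setdb1 at 0 hr, and 2203 and 275 at 48 hr (-1.15 over the 5 pairs, adjusted p = 0.197). In 3T3-L1 Col2a1 read 2.9 to 12.4 on every array. The preadipocyte and fibroblast list, all 7 on the array, summed to 14806 to 20364 with si-Ctr and 13313 to 20778 on the arrays labelled si-Setdb1. Its genes went both ways over the 5 pairs (limma). Ly6a differed by -0.81 (adjusted p = 0.0765), Thy1 by -0.43 (adjusted p = 0.0836) and Dlk1 by 0.60 (adjusted p = 0.106). Pdgfra, Col1a1 and Vim differed by -0.25, -0.13 and -0.01 (adjusted p = 0.321 to 0.948), and Cd34 was too dim to be tested. The muscle, blood and endothelium lists summed to 7.7 to 97.2 over all arrays. The part of these markers in the results was not tested. In bulk RNA of this kind, fewer cells of a type and less RNA per cell cannot be told apart.

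The promoter is shown for members that have one in the RefSeq table of assembly GRCm38.p6 and that the results below turn on: Acsl1, whose signal moved over the widest range of fold among the 6 tested members, and Agpat2, which was higher in every pair. The windows run from 250 bases before to 50 bases after the annotated start, 5′ to 3′ on the strand of the gene. Capitals mark matches, on either strand, to the GC box GGGCGG or the CCAAT box CCAAT.
Acsl1 promoter, chr8:46470787-46471086, plus strand: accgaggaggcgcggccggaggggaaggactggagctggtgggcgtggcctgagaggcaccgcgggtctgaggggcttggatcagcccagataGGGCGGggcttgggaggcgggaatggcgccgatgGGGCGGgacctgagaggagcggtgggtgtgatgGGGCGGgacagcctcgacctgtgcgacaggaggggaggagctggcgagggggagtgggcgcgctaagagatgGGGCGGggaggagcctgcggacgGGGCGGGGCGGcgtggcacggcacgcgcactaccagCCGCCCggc
Acsl1 second promoter, chr8:46490716-46491015, plus strand: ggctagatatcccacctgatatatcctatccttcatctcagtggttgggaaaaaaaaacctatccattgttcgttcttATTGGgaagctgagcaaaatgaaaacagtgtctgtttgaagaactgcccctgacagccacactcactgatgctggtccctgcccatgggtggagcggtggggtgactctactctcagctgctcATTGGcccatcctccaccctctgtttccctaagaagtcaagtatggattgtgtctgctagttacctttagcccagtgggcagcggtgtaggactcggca
Agpat2 promoter, chr2:26604368-26604667, minus strand: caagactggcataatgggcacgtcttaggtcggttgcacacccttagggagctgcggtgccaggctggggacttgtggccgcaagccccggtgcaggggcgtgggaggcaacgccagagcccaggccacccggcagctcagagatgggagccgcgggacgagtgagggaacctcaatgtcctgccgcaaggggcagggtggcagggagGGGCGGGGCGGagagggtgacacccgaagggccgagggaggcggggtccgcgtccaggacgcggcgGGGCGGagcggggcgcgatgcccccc
The first Acsl1 window held 7 GC boxes, 2 of which overlap. The second Acsl1 window held no GC box and 2 CCAAT boxes, both on the minus strand and written as ATTGG. The Agpat2 window held 3 GC boxes, again with an overlapping pair. Over 32851 windows of the same length, 35.7% held a GC box and 37.4% a CCAAT box on either strand. No match was found in the windows of Acsl1, Agpat2, Lpin1 or Pck1 to the letters of the glucocorticoid receptor palindrome (in 0.00913% of windows), the direct repeat 1 element bound by PPAR (0.0396%), a C/EBP site (TTGCNNAA, 10.8%), an E-box (CACGTG, 7.15%) or TATAAA (13.6%). The Lpin1 window held none of the motifs and the Pck1 window 1 GC box. These are descriptions of letters in short windows and do not show binding.

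Signals are the deposited intensities on a linear scale, read from the brightest probe set of each gene, and are compared only within one probe set. Brightest means the highest mean of normalised log2 values. On the linear scale, Gpd1 1448249_at (mean 18.3) was above the Gpd1 probe set used (14.4). Likewise, Lpin1 1418288_at (92.9) was above the Lpin1 probe set used (91.6). Acsl1 activates long-chain fatty acids for fat synthesis. Before the medium, its 3T3-L1 signal was 192 with si-Ctr and 455 on the array labelled si-Setdb1 in pair A, and 144 and 471 in pair B. In 10T1/2 at 0 hr it was 365 with si-Ctr and 317 on the array labelled si-Setdb1. After dexamethasone it was 197 and 1909 in 3T3-L1 and 436 and 3506 in 10T1/2. The 2 arrays labelled si-Setdb1 in dexamethasone medium stood above all others, and the remaining 10 lay between 144 and 471.

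Gpd1, the cytosolic glycerol-3-phosphate dehydrogenase, was dim. Its signal was 7.3 and 17.5 in pair A of 3T3-L1 at 0 hr, 4.6 and 27.9 in pair B, 12.3 and 4.7 in 10T1/2, 6.3 and 39.6 in 3T3-L1 at 36 hr, and 9.3 and 31.8 in 10T1/2 at 48 hr, si-Ctr first in each pair. The order of the pair turned round in 10T1/2 at 0 hr. Its probe set (1439396_x_at) belongs to a class that shares probes with other transcripts, so that part of the signal may come from them.

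Agpat2 makes phosphatidic acid from lysophosphatidic acid, and its loss causes congenital lipodystrophy in humans. Agpat2 signals were 208 and 287 in pair A of 3T3-L1 at 0 hr, 187 and 382 in pair B, 137 and 189 in 10T1/2, 247 and 588 in 3T3-L1 at 36 hr, and 171 and 1265 in 10T1/2 at 48 hr. Every array labelled si-Setdb1 was above its si-Ctr partner, and the widest gap was in 10T1/2 in dexamethasone medium. Lpin1, a phosphatidate phosphatase, read 52.8 and 89.5, 60.9 and 96.3, 46.6 and 73.4, 120 and 224, and 48 and 154 in the same 5 pairs. Among its si-Ctr arrays on this probe set the one of 3T3-L1 at 36 hr stood apart at 120, with the other 4 at 46.6 to 60.9. This depended on the probe set. On Lpin1 1418288_at, si-Ctr read 112 in 3T3-L1 at 36 hr and 101 in 10T1/2 at 48 hr, against 43.6 to 62.9 at 0 hr.

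Dgat1 and Dgat2 are unrelated enzymes that both add the last fatty acid. Dgat1 read 186 and 265 in pair A of 3T3-L1 at 0 hr, 154 and 295 in pair B, 152 and 176 in 10T1/2, 197 and 566 in 3T3-L1 at 36 hr, and 186 and 734 in 10T1/2 at 48 hr. Dgat2 read 40.7 and 90.3, 38.6 and 129, 126 and 79.4, 37.2 and 183, and 99.7 and 527 in the same 5 pairs. Dgat1 was higher in all 5 pairs and Dgat2 in 4, the exception being 10T1/2 at 0 hr.

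Pck1, the cytosolic phosphoenolpyruvate carboxykinase that feeds glycerol synthesis in fat tissue and glucose synthesis in liver, read 0.8 to 11.2 on its brightest probe set (1439617_s_at), highest on the array labelled si-Setdb1 of 3T3-L1 at 36 hr. Its other probe sets read 0.7 to 6.2 and 0.2 to 5.3. All 3 were under the limit of 7.69 that a mean signal had to reach. Exact two-sided sign-flip tests over the 5 pairs gave p = 0.625, 0.875 and 0.25, where 5 pairs cannot give less than 0.0625.

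**Figure D1:**
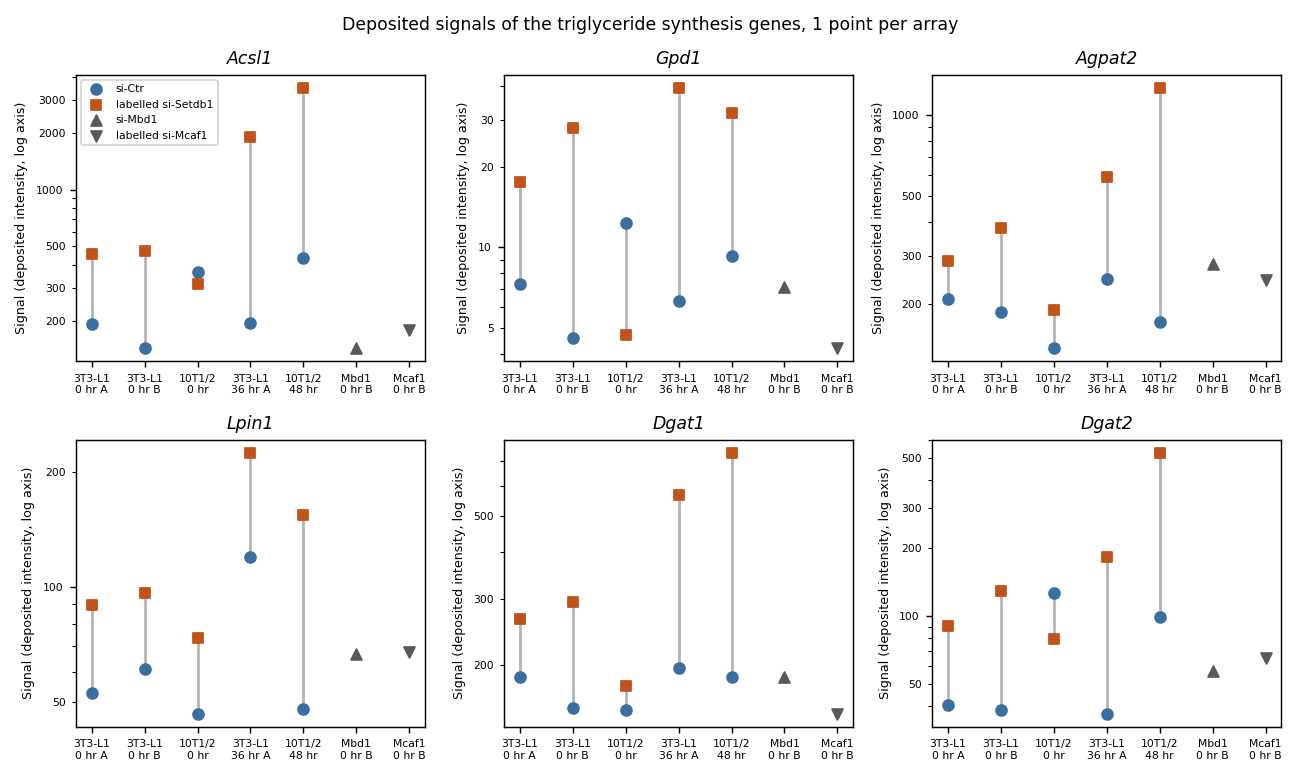
Deposited signal of 6 members on each of the 12 arrays, on a log axis, with 1 point per array and a line joining the si-Ctr array and the array labelled si-Setdb1 of one line, time and experiment. In each panel the 2 arrays labelled si-Setdb1 in dexamethasone medium (36 hr and 48 hr) are the highest, and the si-Ctr point lies above its partner in 10T1/2 at 0 hr for Acsl1, Gpd1 and Dgat2.

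Over the 5 pairs of arrays labelled si-Setdb1 and si-Ctr, all 6 tested members had a positive mean difference, from 0.93 for Lpin1 to 1.79 for Acsl1 on the log2 scale, and none passed the test over all genes. The differences in this and the following comparisons are of quantile-normalised log2(signal + 0.8) values, fitted with limma and adjusted by the Benjamini-Hochberg method over the 12402 genes. Acsl1 was higher by 1.79 ± 0.49 (SE, 5 pairs, adjusted p = 0.114), 3.46-fold on this scale. Lpin1 had the smallest adjusted p, 0.0544, with a difference of 0.93 ± 0.15, and its 5 pair differences lay between 0.65 and 1.59. Dgat1 was higher by 1.03 ± 0.26 (adjusted p = 0.0979) and Agpat2 by 1.20 ± 0.34 (adjusted p = 0.12), both in 5 of 5 pairs. Dgat2 differed by 1.37 ± 0.44 (adjusted p = 0.147) and Gpd1 by 1.29 ± 0.56 (adjusted p = 0.241), each higher in 4 of 5 pairs. The Gpd1 difference was 0.67 with a pseudocount of 16 and 1.93 without the 10T1/2 pair at 0 hr. Gpd1 is among the 6 members only because the arrays labelled si-Setdb1 raised its mean past the intensity limit. So 0 of 6 members were called, where 1.1% of all genes were called in either direction. Unadjusted, 5 of 6 members and 22.3% of all genes had a p under 0.05. The median difference was 1.24 over the members and 0.002 over all genes tested, and 3 members were higher in all 5 pairs, as were 11% of all genes. All 5 arrays labelled si-Setdb1 were above all 5 si-Ctr arrays in 0 of 6 members and in 0.685% of all genes. Without the pair of experiment B the estimates were 0.97 for Lpin1 and 1.78 for Acsl1, the lowest and highest of the 6 members, and no member passed. The call did depend on the setting. With an intensity trend or with the intensity limit at the 60th percentile, Acsl1, Agpat2, Lpin1 and Dgat1 passed (limma adjusted p = 0.0104 to 0.0435). Beside them, 880 of 12402 and 843 of 8268 genes passed.

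The other probe sets of the same genes were set beside these. Of the 19 probe sets, 14 passed the intensity limit, 0 of them passed the test over 27022 probe sets (0.0296% of all did), and their adjusted p lay between 0.103 and 0.398. All 14 had a positive mean difference. They belong to the 6 tested members and include the probe sets used above, so they are not separate evidence. Of all genes tested, read from 1 probe set each, 50.3% were above 0, and the share over all probe sets is not given. The limit is on a mean over all arrays, so high signals on arrays labelled si-Setdb1 help a dim probe set to pass. Of the 14, 5 were higher in all 5 pairs, as were 8.88% of all probe sets past the limit. The Acsl1 probe sets past the limit ranged from 1.13 (1460316_at) to 2.82 (1422526_at), so the size of the Acsl1 difference depended on the probe set. Under the limit, Acsl1 1447355_at differed by -0.20 on average and was higher in 2 of 5 pairs. Gpd1 1456732_at, also under it, differed by 0.38 and was higher in 3 of 5. The other Gpd1 probe sets differed by 1.91 (1448249_at) and 1.12 (1416204_at), the other Lpin1 probe set by 0.64, the other Dgat1 probe set by 0.45 and the other Dgat2 probe set by 0.94.

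**Figure D2:**
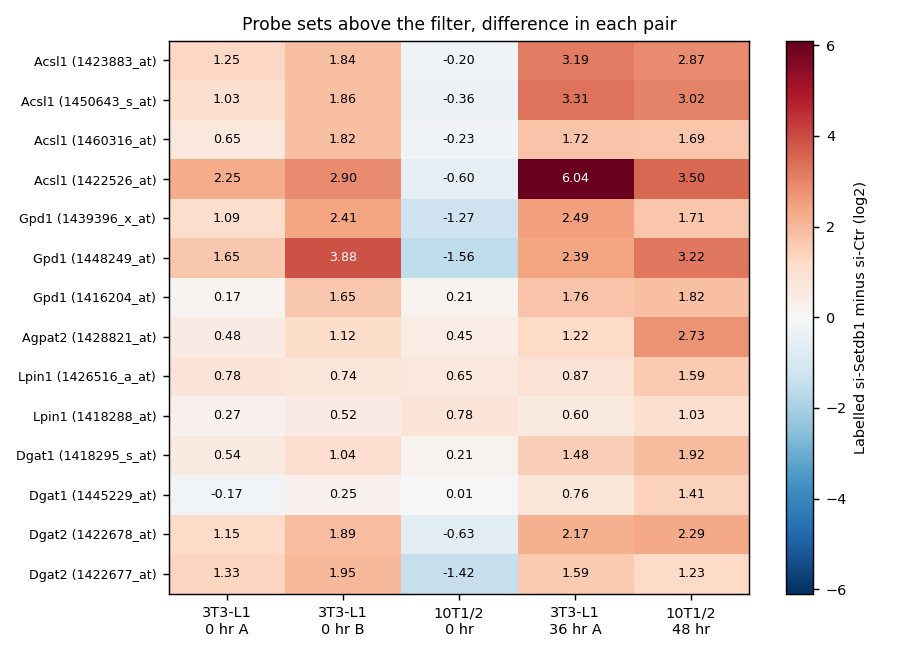
Difference between the array labelled si-Setdb1 and its si-Ctr partner (log2) for the 14 member probe sets above the intensity limit, 1 row per probe set and 1 column per pair, red where the array labelled si-Setdb1 is higher. The 10T1/2 0 hr column is negative for all 4 Acsl1 probe sets and both Dgat2 probe sets, while both dexamethasone columns are positive for all 14 probe sets.

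The 2 pairs of 3T3-L1 at 0 hr were fitted alone to ask whether the members differed before the medium. This fit did not use the pair as a block. Its SE and p-values therefore measure the spread between the A and B arrays of each siRNA, not that of the pair differences. Adjusted p-values with the block are given below. All 6 were higher in both pairs. The differences were 1.55 ± 0.25 for Acsl1 (adjusted p = 0.605), 1.75 ± 0.43 for Gpd1 (0.812), 1.52 ± 0.26 for Dgat2 (0.65), 0.80 ± 0.25 for Agpat2 (0.849), 0.79 ± 0.23 for Dgat1 (0.838) and 0.76 ± 0.19 for Lpin1 (0.812). None of the 6 was called in this limma fit, where 0.0161% of all genes were. At an unadjusted p under 0.05, 6 of 6 members and 5.43% of all genes passed. In the joint fit split by line, 0 of 6 members were called over the 3 pairs of 3T3-L1 (0.00806% of all genes were) and 0 of 6 over the 2 pairs of 10T1/2 (0% of all genes). At an unadjusted p under 0.05, 5 and 2 members passed, with 17% and 15.6% of all genes. Of the 24 further pathway genes described below, 16 were above 0 in 3T3-L1 at 0 hr, with a median of 0.11, and none passed; the 3 with the smallest p were Pcx at 1.40, Gpat3 at 1.30 and Fitm2 at 1.08 (adjusted p = 0.778 to 0.812).

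In 10T1/2 at 0 hr the pair differences were -0.20 for Acsl1, -1.27 for Gpd1 and -0.63 for Dgat2, and 0.45 for Agpat2, 0.65 for Lpin1 and 0.21 for Dgat1. In the same pair the bright fat cell markers were higher on the array labelled si-Setdb1. With si-Ctr first, Adipoq (the hormone adiponectin) read 51.6 and 222 and Fabp4 84.2 and 340. The other markers of the list read under the signal of the intensity limit on both arrays, so their directions were not interpreted. Retn read 1 and 2, Lep 0.9 and 1.5, Lipe 0.6 and 4.8, Cfd 5.2 and 0.4 and Cidec 0.9 and 0.4. The difference in the siRNA effect between the lines was tested over all pairs, and none of the 6 members passed, nor did any gene (0%). The unadjusted p was under 0.05 for 0 members and 8.31% of genes. Of the further pathway genes none passed either, the 3 with the smallest p being Bscl2 at 0.78, Plpp1 at -0.56 and Agpat4 at -0.52. The widest estimate among the members was Gpd1, lower by 1.78 ± 0.96 in 10T1/2 (adjusted p = 0.713). A member difference that misses the threshold here does not show that the lines responded alike.

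The siRNA difference was wider after dexamethasone than at 0 hr in all 6 members, though not past the test of that difference. Over the 2 pairs after dexamethasone, estimated in the same limma fit as an addition after values were seen, Acsl1 was higher by 3.03 ± 0.49, which is 8.15-fold, Dgat2 by 2.23 ± 0.59, Gpd1 by 2.10 ± 0.85, Agpat2 by 1.98 ± 0.39, Dgat1 by 1.70 ± 0.24 and Lpin1 by 1.23 ± 0.20. Adjusted p-values were 0.103 for Acsl1, Lpin1 and Dgat1, and 0.122 to 0.27 for the rest, so 0 of 6 were called, with 0.00806% of all genes called. At an unadjusted p under 0.05, 5 of 6 members and 19.2% of genes passed. With the trend or the stricter limit 5 and 4 members were called, beside 546 of 12402 and 472 of 8268 genes. The effect with dexamethasone minus the effect without was 2.06 ± 0.63 for Acsl1 (adjusted p = 0.661), 1.43 ± 0.76 for Dgat2 (0.713), 1.36 ± 1.10 for Gpd1 (0.779), 1.29 ± 0.51 for Agpat2 (0.694), 1.10 ± 0.31 for Dgat1 (0.652) and 0.51 ± 0.25 for Lpin1 (0.713). No member and no gene was called (0%). At an unadjusted p under 0.05, 2 of 6 members, Acsl1 and Dgat1, and 7.16% of genes passed. The median of this difference was 1.32 over the members, -0.03 over all genes and 0.003 over the 24 further pathway genes, of which none passed and Gpat3 had the largest difference among the 3 with the smallest p, 2.22 (adjusted p = 0.677), beside Plpp3 at -0.66 and Gpam at 0.38. For 5 members, all but Gpd1, each dexamethasone pair had a larger difference than each 0 hr pair, as it did for 11.8% of all genes. These comparisons share their arrays with the 5-pair comparison.

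The change from 0 hr to dexamethasone medium itself was compared in 4 pairs of arrays, 1 for each line and siRNA. With si-Ctr, Acsl1 differed by 0.08 in 3T3-L1 and 0.26 in 10T1/2, while on the arrays labelled si-Setdb1 it differed by 2.02 and 3.32. Agpat2 differed by 0.29 and 0.34 with si-Ctr and by 1.02 and 2.63 with si-Setdb1. Dgat1 differed by 0.13 and 0.30 with si-Ctr and by 1.07 and 2.01 with si-Setdb1. On their brightest probe sets, Dgat2 and Gpd1 were not higher with si-Ctr (-0.02 and -0.28, and -0.28 and -0.44). With si-Setdb1 they were higher by 1.003 and 2.63, and by 1.12 and 2.54. Lpin1 was the exception, differing in 3T3-L1 by 1.21 with si-Ctr and by 1.30 with si-Setdb1, and by 0.11 and 1.06 in 10T1/2. A pattern chosen after the values were seen was a difference over 1 with si-Setdb1 in both lines. On the brightest probe sets it was met by 6 of 6 members and 1.57% of all genes. The same pattern with si-Ctr was met by 0 of 6 members and 1.07% of genes. On the brightest probe sets, both arrays labelled si-Setdb1 in dexamethasone medium stood above the other 10 arrays in 6 of 6 members and 4.46% of all genes. Among the other probe sets past the intensity limit, those of Acsl1 and Gpd1 1448249_at were over 1 with si-Setdb1 in both lines. Under 1 were Dgat2 1422677_at (0.33) and Dgat1 1445229_at (0.96) in 3T3-L1, and Lpin1 1418288_at (0.94) and Gpd1 1416204_at (0.89) in 10T1/2. With si-Ctr, Dgat2 1422677_at differed by 0.08 and 0.46, Gpd1 1448249_at by 1.05 and 0.19 and Gpd1 1416204_at by 0.81 and -0.73. For Acsl1 the si-Ctr values were 0.875 and 0.83 on 1460316_at, -0.14 and 0.16 on 1450643_s_at, and -1.60 and 0.47 on 1422526_at. Lpin1 1418288_at gave 0.90 and 0.695 with si-Ctr, and Dgat1 1445229_at 0.04 and 0.10. The size of the si-Ctr change in Acsl1, and in Lpin1 in 10T1/2, thus depended on the probe set.

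**Figure D3:**
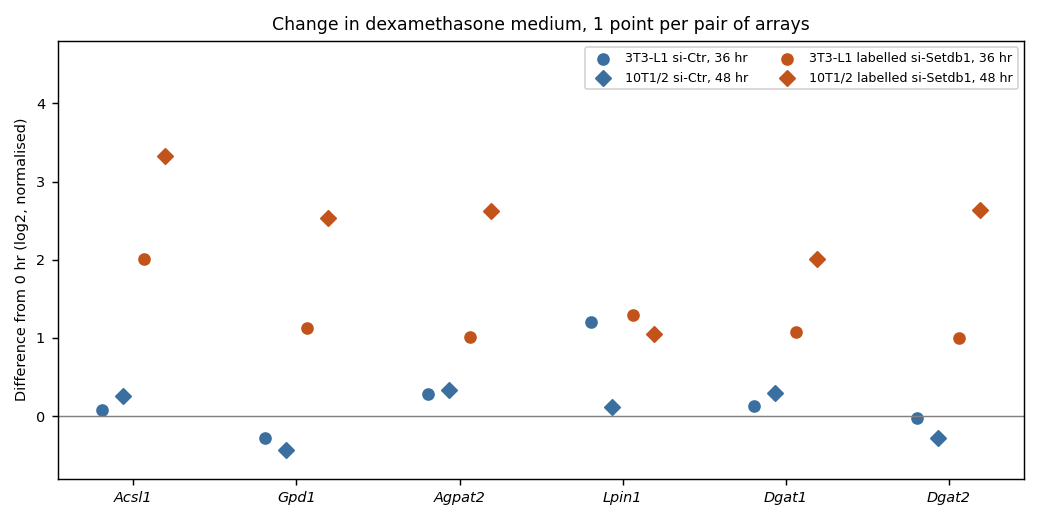
Change from 0 hr to dexamethasone medium (normalised log2) in the 6 members, with 1 point per pair of arrays, circles for 3T3-L1 after 36 hr and diamonds for 10T1/2 after 48 hr. The si-Ctr points (blue) lie between -0.44 and 0.34 except Lpin1 in 3T3-L1 at 1.21, and the points of arrays labelled si-Setdb1 (orange) lie between 1.003 and 3.32.

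Over all 4 pairs, the medium differences of the members had a median of 0.90 in the limma fit, and 4 of 6 were higher in all 4 pairs, as were 16.3% of all genes. Lpin1 had the smallest adjusted p, 0.136, with a difference of 0.92 ± 0.23, and Acsl1 differed by 1.42 ± 0.60 (adjusted p = 0.261). None of the 6 members was called, against 0.766% of all genes, and 2 members and 20.9% of genes had an unadjusted p under 0.05. The difference of this change between the lines was called for no member and no gene (0%), with 0 members and 9.97% of genes at an unadjusted p under 0.05. At 0 hr the lines were compared over both siRNAs. Agpat2 was 0.64 ± 0.20 lower in 10T1/2 (adjusted p = 0.0887), and the other members had adjusted p-values of 0.264 to 0.805, so 0 of 6 were called where 17.6% of all genes were. The unadjusted p was under 0.05 for 1 of 6 members and 34.6% of genes.

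With Mbd1 or Mcaf1 siRNA there was 1 array each, so their values are differences between 2 arrays with no test. Against the si-Ctr array of experiment B, which both share, the Mbd1 array differed by 0.02 for Acsl1, 0.73 for Gpd1, 0.62 for Agpat2, 0.19 for Lpin1, 0.32 for Dgat1 and 0.65 for Dgat2. The array labelled si-Mcaf1 differed by 0.34, -0.08, 0.41, 0.12, -0.04 and 0.76 in the same order. None of the 6 members was past 2-fold on either array, against 3.73% and 4.44% of all genes. The array labelled si-Setdb1 of the same experiment differed from the same si-Ctr array by 1.84 for Acsl1, 2.41 for Gpd1, 1.12 for Agpat2, 0.74 for Lpin1, 1.04 for Dgat1 and 1.89 for Dgat2. For Lpin1 this was under 2-fold.

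The remaining enzymes of the pathway were taken from a list of 31 further genes, of which 24 were tested. Over the 5 pairs, 18 of the 24 were above 0, with a median of 0.09, where 50.3% of all genes were above 0. Of the 24, 1 rose and none fell, where 1.1% of all genes were called. The one that rose was Fitm2, which helps form lipid droplets, by 1.19 ± 0.16 (adjusted p = 0.0404). Its signal, si-Ctr first, was 145 and 252 in pair A of 3T3-L1 at 0 hr, 107 and 248 in pair B, 92.7 and 162 in 10T1/2, 250 and 666 in 3T3-L1 at 36 hr, and 181 and 587 in 10T1/2 at 48 hr. Fitm2 was higher in every pair, but neither Fitm2 (adjusted p = 0.0764 to 0.132) nor any other gene was called when any 1 of the 5 pairs was left out. The relatives of the members, named here beyond the genes that passed, were not called. Among the acyl-CoA synthetases, Acsl3, Acsl4 and Acsl5 differed by 0.09, 0.17 and 0.08, while Acsl1 differed by 1.79. Among the acylglycerolphosphate acyltransferases, Agpat1, Agpat3, Agpat4 and Agpat5 differed by 0.02, 0.03, -0.16 and -0.14, and Lpin2 differed by 0.06. Of the glycerol-3-phosphate acyltransferases, Gpam differed by 0.48 (adjusted p = 0.0794), Gpat4 by 0.31 and Gpat3 by 1.53 (adjusted p = 0.172). Of the glycerol and pyruvate enzymes, Gpd1l differed by 0.30, Gpd2 by -0.09, Gk by -0.24, Pck2 by -0.11 and Pcx by 1.17 (adjusted p = 0.122). Whether a member differed from its relative was not tested.

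**Figure D4:**
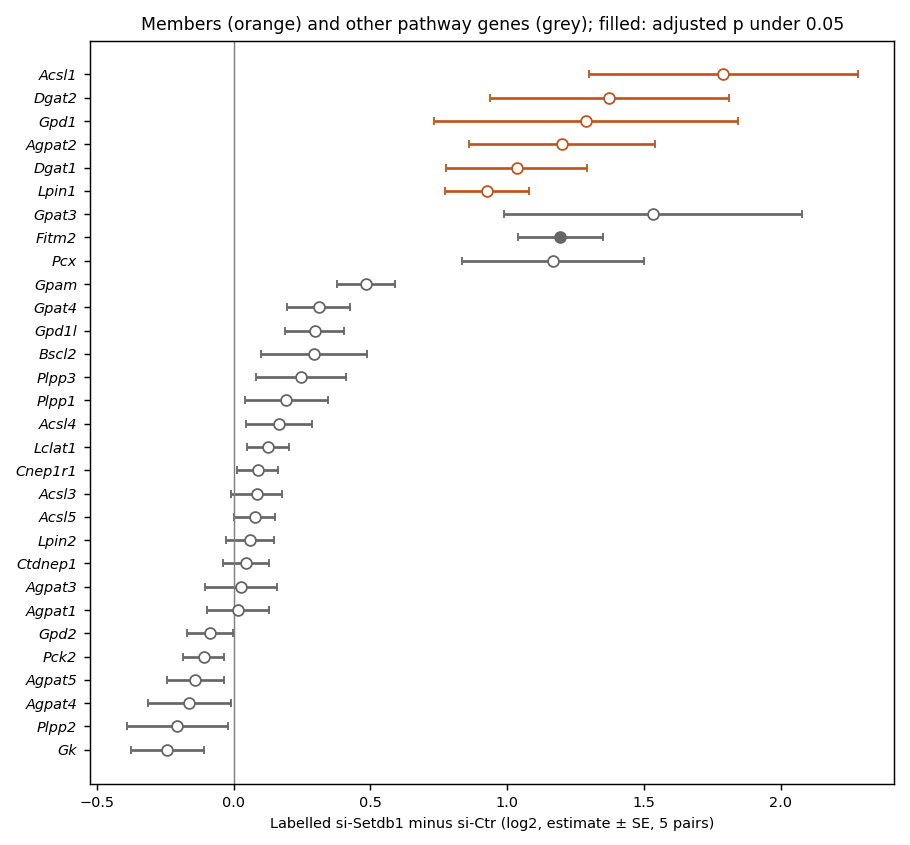
Difference between arrays labelled si-Setdb1 and si-Ctr over 5 pairs (log2, estimate ± SE from limma) for the 6 tested members in orange and the 24 tested further pathway genes in grey, each on its own row. The filled point is Fitm2, the only one past an adjusted p of 0.05, and the members lie between 0.93 and 1.79, above all the grey points but Gpat3, Fitm2 and Pcx.

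From a list of 11 regulators of fat cell genes, of which 9 were tested, Cebpa, a transcription factor of fat cell differentiation, rose by 2.43 (adjusted p = 0.0383) and Nr1h3, the oxysterol receptor LXR alpha, by 1.07 (adjusted p = 0.0404) over the 5 pairs, in which 1.1% of all genes were called. With any 1 pair left out their adjusted p was 0.0715 to 0.132 and 0.0839 to 0.132. Pparg, the leading regulator of that process, had signals of 131 and 366 in the first 3T3-L1 pair at 0 hr, 160 and 323 in the second, 265 and 341 in 10T1/2, 271 and 866 at 36 hr, and 380 and 991 at 48 hr, and did not pass. In the medium comparison, in which 0.766% of all genes were called, Plpp1, a phospholipid phosphatase, rose by 1.09 ± 0.09 (adjusted p = 0.0268), and of the regulators Cebpd rose by 1.44 and Nr1h3 by 1.75. With any 1 of the 4 pairs left out none of these 3 passed, their adjusted p being 0.082 to 0.137, 0.082 to 0.137 and 0.0566 to 0.189.

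Between the lines at 0 hr, 6 of the 24 further pathway genes passed, where 17.6% of all genes did. In 10T1/2, Acsl3 was 1.22, Gpd2 0.67 and Bscl2 (seipin) 2.31 higher, and Acsl4 was 0.81, Plpp3 1.25 and Pck2 1.30 lower, on the log2 scale. Of the regulators, Cebpb was 1.02 lower. This comparison held 2 arrays of 10T1/2 and 4 of 3T3-L1, and without either 10T1/2 array none of these 7 genes passed (adjusted p = 0.0575 to 0.279). With array medians subtracted in place of quantile normalisation, Acsl4, Gpd2, Plpp3, Pck2 and Cebpb did not pass. The arrays of experiment B are all of 3T3-L1, so experiment and line are partly confounded here. Without experiment B, Acsl4, Gpd2 and Cebpb did not pass (limma adjusted p = 0.0699 to 0.078), and 907 of 12402 genes did.

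The genes whose pattern over the 12 arrays was most like each member were listed by Pearson's r of the normalised values, as a description. Dgat1 was most like Retn (0.993), Atpaf2 (0.98) and Cluh (0.969). Acsl1 was most like Dmtn (0.952), Dgat2 (0.948) and Naa20 (0.948), and Dgat2 like Acsl1 (0.948), Dmtn (0.927) and Casp8 (0.926). Agpat2 was most like Cluh (0.956), Tmem87b (0.943) and Retn (0.942), Lpin1 like Trap1 (0.961), Pank3 (0.96) and Bckdha (0.939), and Gpd1 like Pigl (0.91), Dmtn (0.904) and Mrpl15 (0.891). Among the members, r ran from 0.584 for Lpin1 with Dgat2 to 0.948 for Acsl1 with Dgat2. These arrays share siRNAs, medium and experiment, so the points are not independent.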

How the data were processed

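The deposited values are linear intensities, 1 for each probe set on each array. The values themselves show that every array has a mean of 100 once the outer 2% at either end is trimmed. The deposited table was made by hybridising biotin-labelled cRNA from total RNA to Affymetrix arrays, per the labels' protocols. For background correction, detection calls and software, details were not given in the sources used here. The same values in a second deposited table were not used, nor were 11 columns of log ratios.

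Of 45101 probe sets, 64 controls were left out, and 38068 carried 1 symbol, 1253 several, 5654 none and 62 only a date. Symbols were updated through RefSeq, 33189 matching a current symbol, 2004 a synonym and 2875 neither. Each gene is represented by its brightest probe set, the one with the highest mean of normalised log2 values. Values were log2(intensity + 0.8), where 0.8 is the 10th percentile, so folds of dim genes are understated. Array medians differed by up to 0.648, and arrays were quantile normalised. Genes under the 40th percentile (a signal of 7.69) were left out. The number of arrays limits the precision.

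The tests used limma 3.58.1 (R 4.3.3; lmFit, eBayes without a trend) and adjusted by the Benjamini-Hochberg method at a threshold of 0.05, with the pair as a block for the 5 pairs and for the medium. The letters A and B in the titles mark experiments that both siRNAs share, and the A minus B deviations of the 2 siRNAs correlated over genes with r = 0.427. The 10T1/2 arrays have no letter, so time alone paired them, and pairs may share an experiment although the tests treat them as independent. The alternatives were other scalings, a pseudocount of 16, no filter or the 60th percentile, the mean of probe sets, an intensity trend, the block, and each pair or array left out.

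The named genes are the 7 members, pathway genes and regulators that passed, otherwise the 3 pathway genes with the smallest p, and the 3 genes most alike to each member. Members, lists, patterns and tests were chosen with earlier results of these data known. Relatives of the members, Pparg and single cell type markers are named beyond that rule, after their values were seen.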

Additional observations from a re-analysis of the deposited data

Results flagged for a closer look

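In 10T1/2 at 0 hr, 3 members went the opposite way to both 3T3-L1 pairs at 0 hr. The array labelled si-Setdb1 minus the si-Ctr array was -0.20 for Acsl1, -1.27 for Gpd1 and -0.63 for Dgat2 on the log2 scale. In the 2 pairs of 3T3-L1 at 0 hr the differences were 1.25 and 1.84 for Acsl1, 1.09 and 2.41 for Gpd1, and 1.15 and 1.89 for Dgat2. The same opposite signs were met by 11.6% of all genes. The difference between the lines at 0 hr was not tested, since 10T1/2 had 1 array of each siRNA at 0 hr. The test over all pairs gave limma adjusted p-values of 0.9, 0.713 and 0.847. The other probe sets past the intensity limit differed in that 10T1/2 pair by -0.36, -0.23 and -0.60 for Acsl1 and by -1.42 for Dgat2, while those of Gpd1 gave -1.56 and 0.21.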

How the results depend on the processing

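Of the alternative values of members and of the pathway genes and regulators that passed, 588 of 704 kept their direction and side of the threshold, 26 passed only in the alternative, 79 no longer passed and 11 changed sign. Over the 5 pairs, 0 members were called in the main settings, 2 with a pseudocount of 16 (Lpin1 and Dgat1), 4 with the filter at the 60th percentile and 4 with an intensity trend (Acsl1, Agpat2, Lpin1 and Dgat1 in both), and 1 with no replicate block (Lpin1, adjusted p = 0.0469, where its alternatives ran from 0.0104 to 0.204). Over the 2 pairs of 10T1/2, the 60th-percentile filter and the trend each called 1 member, beside 245 of 8268 and 273 of 12402 genes. Between the lines at 0 hr each called 1, Agpat2 (-0.64, adjusted p = 0.0495 and 0.0468, with 0.0468 to 0.566 over the alternatives). Over the 2 pairs after dexamethasone, 4 members were called with a pseudocount of 16, 4 with the 60th-percentile filter and 5 with the trend. Of all genes, 291 of 12402, 472 of 8268 and 546 of 12402 were called there. Of the 14, 9 and 14 member probe sets tested under these 3 settings, 2, 2 and 5 were called over the 5 pairs. The share of all probe sets called under them is not given, so these counts have no background beside them. The pseudocount, filter and trend change how dim genes share the spread. Each was changed alone and each moved the calls, and why they moved was not tested. Gpd1 was under the 60th-percentile filter and has no value there, and with a pseudocount of 16 its 5-pair difference was 0.67.

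The count of all genes called over the 5 pairs, 136 in the main settings, ran from 0 to 880 (843 with the 60th-percentile filter, 880 with the trend, 654 with a pseudocount of 16, 99 with no replicate block, 2 with the mean of probe sets, 0 with no filter). It was 0 with any 1 pair left out. For 3T3-L1 at 0 hr the replicate block moved it from 2 to 1 and member adjusted p-values to 0.285 to 0.352. Over 3 pairs it ran from 0 to 299 (main 1), over the 2 pairs of 10T1/2 from 0 to 273 (main 0), after dexamethasone from 0 to 546 (main 1), for the medium from 0 to 574 (main 95), and between the lines from 442 to 2897 (main 2184). The median difference of all genes between the lines was 0.043 in the main settings and 0.276 with array medians subtracted instead.

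With each pair left out, the 5-pair differences ran from 1.44 to 2.29 for Acsl1, 0.99 to 1.93 for Gpd1, 0.82 to 1.39 for Agpat2, 0.76 to 0.996 for Lpin1, 0.81 to 1.24 for Dgat1 and 1.15 to 1.87 for Dgat2, with 0 members called. The difference between the lines in the siRNA effect changed sign for Dgat1 without the first 3T3-L1 pair (-0.20) and without 10T1/2 at 48 hr (-0.81), for Acsl1 (0.78) and Dgat2 (0.55) without 10T1/2 at 0 hr, and for Agpat2 (-0.49) and Lpin1 (-0.15) without 10T1/2 at 48 hr. Over the left-out pairs it ran from -2.29 to 0.78 for Acsl1, -0.49 to 1.80 for Agpat2, -0.15 to 0.79 for Lpin1, -0.81 to 0.90 for Dgat1 and -2.36 to 0.55 for Dgat2. The level difference between the lines changed sign with the mean of probe sets for Acsl1 (-0.016) and Lpin1 (0.23), without the 10T1/2 si-Ctr array for Acsl1 (-0.58) and Dgat2 (-0.36), and without the 10T1/2 array labelled si-Setdb1 for Gpd1 (1.21). Over the left-out arrays it ran from -0.58 to 1.17 for Acsl1, -1.80 to 1.21 for Gpd1 and -0.36 to 1.79 for Dgat2. The cause of these changes was not tested. No paired analysis was possible for the comparison of the lines because the 10T1/2 arrays carry no letter.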

Other observations

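Gpat3, a glycerol-3-phosphate acyltransferase, and Pcx, pyruvate carboxylase, stood beside the members in the 5-pair comparison without passing it, and were chosen here after their values were seen. Gpat3 had a signal of 35.5 with si-Ctr and 405 on the array labelled si-Setdb1 in 10T1/2 at 48 hr, 9.7 and 57.5 in 3T3-L1 at 36 hr, and 19.5 and 11.5 in 10T1/2 at 0 hr. Like Acsl1, Gpd1 and Dgat2 it was lower on the array labelled si-Setdb1 in that last pair. Pcx had 385 and 1557 in 10T1/2 at 48 hr, 310 and 890 in 3T3-L1 at 36 hr, and 276 and 217 in 10T1/2 at 0 hr.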
